A study of Mus musculus with 15 samples.

Results

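CC chemokines are small secreted proteins that bind receptors on leukocytes and draw them along a gradient, and 10 of their genes were followed here: Ccl2, Ccl3, Ccl4, Ccl5, Ccl6, Ccl7, Ccl8, Ccl9, Ccl11 and Ccl12. They were taken by symbol, as every probe set that the platform annotation maps to these names, which gave 12 of the 45101 probe sets and 10 of the 18193 named genes of the array. Ccl6 and Ccl9 have 2 probe sets each, and the other 8 genes have 1.

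The RNA came from kidneys of mice of C57/129sv background and both sexes, aged between postnatal days 14 and 300 (Theiler stage 28), all of which carried the transgene Tg:Col1a1-eGFPL10a, controls included. In this transgene the collagen 1α1 promoter and enhancer drive a GFP-tagged ribosomal protein, so the tag is confined by design to cells in which that element is active, which the labels call kidney pericytes. Ribosomes carrying the tag were pulled out with the messages on them (the bound fraction), and the rest of the lysate gave the unbound fraction. The 5 groups had 3 arrays each: bound (arrays 1 to 3) and unbound (4 to 6) RNA of sham-operated kidneys on day 0, bound RNA on day 2 after unilateral ureteral obstruction (UUO; 7 to 9), and bound (10 to 12) and unbound (13 to 15) RNA on day 5 after UUO. Whether samples were pooled, or taken from different animals, is not in the labels, and the p-values therefore describe the spread of these samples only, which may be technical.

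In injured kidney, chemokines of this class are known to be made by tubular cells, resident macrophages and stromal cells, usually under the control of NF-kappaB, AP-1 or cytokine-driven transcription factors. Ccl2, Ccl7 and Ccl12 are ligands of Ccr2, the receptor with which inflammatory monocytes leave the blood. Ccl11 (eotaxin) acts on Ccr3 of eosinophils, and mouse Ccl8 acts on Ccr8. Ccl3, Ccl4 and Ccl5 attract monocytes and T cells, Ccl3 and Ccl5 bind Ccr1, and Ccl6 and Ccl9, found in rodents, are made by myeloid cells and act on Ccr1. All 10 genes lie on mouse chromosome 11 in 2 clusters of 5, in the order Ccl2, Ccl7, Ccl11, Ccl12 and Ccl8, then Ccl5, Ccl9, Ccl6, Ccl3 and Ccl4.

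Promoter sequences were at hand for 5 of the 10 genes, Ccl3, Ccl6, Ccl8, Ccl9 and Ccl12. The 250 bases before the annotated start (RefSeq, build GRCm38.p6, 5' to 3' on the strand of the gene) are printed for the 4 of these that were called in a comparison over time, to show the sequence next to the start site of these genes. Capitals mark matches on either strand to TATAAA, to the AP-1 motif TGANTCA and to NF-kappaB.
Ccl12, chr11:82101595-82101844, plus strand: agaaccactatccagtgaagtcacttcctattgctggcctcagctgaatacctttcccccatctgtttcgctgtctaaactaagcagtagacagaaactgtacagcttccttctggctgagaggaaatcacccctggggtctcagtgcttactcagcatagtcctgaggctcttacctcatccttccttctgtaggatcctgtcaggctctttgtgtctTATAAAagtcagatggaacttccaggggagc
Ccl8, chr11:82114935-82115184, plus strand: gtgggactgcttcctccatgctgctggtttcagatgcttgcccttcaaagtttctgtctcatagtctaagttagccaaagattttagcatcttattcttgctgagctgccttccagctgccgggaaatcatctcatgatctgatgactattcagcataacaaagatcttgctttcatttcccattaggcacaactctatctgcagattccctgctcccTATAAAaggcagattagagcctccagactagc
Ccl9, chr11:83578637-83578886, minus strand: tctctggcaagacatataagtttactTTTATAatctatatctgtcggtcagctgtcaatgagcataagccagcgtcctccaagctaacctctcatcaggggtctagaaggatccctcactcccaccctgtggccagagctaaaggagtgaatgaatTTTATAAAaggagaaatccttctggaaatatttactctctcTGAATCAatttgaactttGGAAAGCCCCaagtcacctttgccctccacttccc
Ccl6, chr11:83593088-83593337, minus strand: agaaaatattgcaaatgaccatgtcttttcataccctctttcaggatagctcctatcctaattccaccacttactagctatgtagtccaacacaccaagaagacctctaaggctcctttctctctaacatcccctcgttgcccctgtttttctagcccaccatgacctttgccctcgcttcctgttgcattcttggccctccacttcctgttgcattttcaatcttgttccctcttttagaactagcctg
Ccl12 and Ccl8, which are neighbours, each hold a TATAAA that starts 31 and 32 bases before the start site. Ccl9 holds TATAAA at -92, where a match on the other strand at -94 overlaps it, and another on the other strand at -224, with TGAATCA at -53 and an NF-kappaB match on the other strand at -35. Ccl6 and Ccl3 hold none of the 3 motifs in this window. TATAAA was found in 3 of the 5 member promoters and in 12.4% of 32851 promoters of the same length, the AP-1 motif in 1 of 5 and 6.75%, and the NF-kappaB motif in 1 of 5 and 7.25%. A match is a string of letters and was not tested as a binding site.

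Levels are given as log2 of the deposited intensity plus 1 after quantile normalization, and a difference of 1 is 2-fold. They compare arrays for 1 probe set and not genes with each other. An array's floor was its brightest of 27 bacterial negative control probe sets, between 3.41 and 5.09 on this scale. Ccl2, Ccl5, Ccl6, Ccl7 and Ccl12 were above the floor on all 15 arrays, Ccl8, Ccl9 and Ccl11 on 14, Ccl4 on 13 and Ccl3 on 5. All 10 passed the filter on low values. Arrays 6, 9, 12 and 15 were brighter as deposited, with spiked hybridization controls at 12100 to 12900 against 4730 to 5860 on the other 11, and are called the 4 bright arrays. Array 6 is of unbound day 0, 9 of bound day 2, 12 of bound day 5 and 15 of unbound day 5. None is of bound day 0, so comparisons with that group are unbalanced in brightness. Array 11 was the dimmest, with a median intensity of 16.4, and its levels depend on the normalization. Ccl6, for example, had deposited intensities of 712.1 on array 11 and 714.4 on array 12, which became 11.00 and 8.30.

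After obstruction, the chemokines that passed the test all rose. Of the 30 differences from sham over time, taken by the probe set of highest mean of each gene, 27 had at least 1 group above the floor and were positive. The other 3, Ccl3 on both days and Ccl4 on day 5 in the bound fraction, compared groups at the floor and have no direction. Leaving out 1 array turned the sign of uncalled differences of Ccl7 and Ccl8 in bound day 2, to -0.23 without array 8 and to -0.62 without array 2. An adjusted p under 0.05 (limma, Benjamini-Hochberg over 16864 genes) was the threshold for a call. All 5 groups were fitted together, so leaving out an array outside the groups compared can also change an adjusted p. In the bound fraction on day 2, 1 of 10 rose (Ccl12), where 5.6% of all genes rose. On day 5, 4 of 10 rose in the bound fraction (Ccl5, Ccl8, Ccl9 and Ccl12), where 13.7% of all genes did, and 4 of 10 rose in the unbound fraction (Ccl2, Ccl6, Ccl9 and Ccl12), where 6.43% did. None fell in these comparisons, where 3.65%, 9.99% and 3.93% of all genes fell. The median difference of the 10 was 1.26, 1.49 and 2.34, and that of all genes was 0.0, 0.12 and 0.01. The bound and the unbound comparison of day 5 each have their own sham arrays, although bound and unbound RNA of a day may come from the same kidneys. Both bound comparisons share arrays 1 to 3, and the comparisons between fractions use the arrays of these comparisons, unpaired.

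The unbound fraction separated the groups most often. On day 5 all 3 unbound arrays lay above all 3 of day 0 for 9 of the 10 genes, Ccl11 being the exception, where 24.3% of all genes were separated in that direction. In the bound fraction 4 of 10 were separated upwards on day 5 (23.6% of all genes) and 3 of 10 on day 2 (11.4% of all genes), namely Ccl2, Ccl9 and Ccl12. Between day 2 and day 5 of the bound fraction no chemokine passed, where 0.587% of all genes did. Ccl8 alone reached an unadjusted p under 0.05 there, and it alone was separated, upwards, as 9.49% of all genes were.

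**Figure D1:**
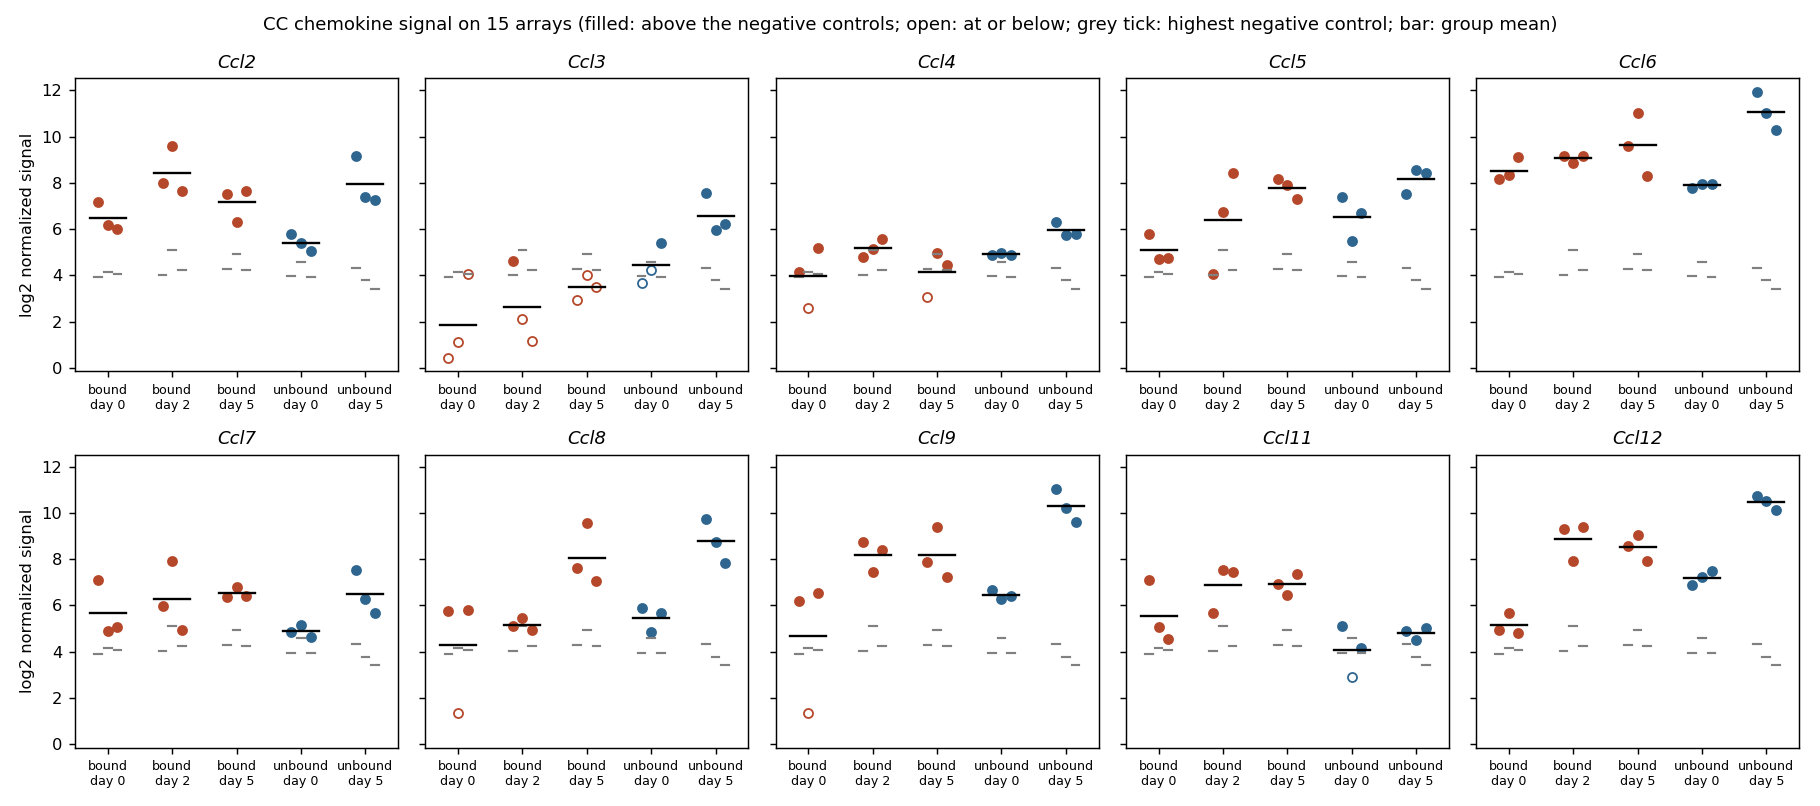
Normalized log2 signal (vertical axis) of the 10 CC chemokines in each of the 5 groups (horizontal axis), 1 point per array, with a black bar at the group mean, a grey tick at each array's floor, red for bound and blue for unbound. Ccl12 lies between 4.82 and 5.68 in bound day 0 and between 7.93 and 9.38 in bound day 2, Ccl11 is the gene with its 3 highest group means in the bound fraction, and the open points of Ccl3 are at or below the floor.

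Ccl12, a Ccr2 ligand that attracts monocytes, was called in 5 of the 7 comparisons. Its log2 signal was 4.95, 5.68 and 4.82 in bound day 0, 9.30, 7.93 and 9.38 in bound day 2, and 8.59, 9.06 and 7.93 in bound day 5. In the unbound fraction it was 6.89, 7.23 and 7.50 on day 0 and 10.73, 10.53 and 10.14 on day 5. Neither fraction had an array of an obstructed kidney that overlapped its sham arrays. Ccl12 rose 13.2-fold by day 2 in the bound fraction (log2 difference 3.72 ± 0.41 SE, adjusted p = 0.000194, n = 3 arrays a group) and stood 10.4-fold above sham on day 5 (3.38 ± 0.41, adjusted p = 0.000229). Day 5 against day 2 gave -0.35 ± 0.41 (95% interval -1.25 to 0.55, adjusted p = 0.716), and the arrays of the 2 days overlapped. In the unbound fraction Ccl12 rose 9.58-fold (3.26 ± 0.41, adjusted p = 0.000512). These 3 calls held in all 26 other settings, with adjusted p of at most 0.0226, 0.00516 and 0.0117. Between the bright arrays 15 and 6 alone, the unbound difference was 2.64.

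Ccl12 was also the only chemokine of the 10 called between the fractions. It was 4.17-fold lower in the bound than in the unbound fraction of sham kidney (-2.06 ± 0.41, adjusted p = 0.011) and 3.85-fold lower on day 5 (-1.94 ± 0.41, adjusted p = 0.0118), with no overlap between arrays on either day. Among all genes, 4.1% were called lower in the bound fraction on day 0 and 7.74% on day 5. The change of this difference from day 0 to day 5 was 0.12 ± 0.59 (95% interval -1.16 to 1.39, adjusted p = 0.948). Without the 4 bright arrays both calls were lost, with differences of -1.89 (adjusted p = 0.0654) and -1.83 (adjusted p = 0.102). Between the bright arrays 12 and 15 alone it was -2.21. From highest to lowest, the group means of Ccl12 ran unbound day 5 (10.47), bound day 2 (8.87), bound day 5 (8.53), unbound day 0 (7.21) and bound day 0 (5.15).

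Ccl2, the monocyte attractant best known from injured kidney, was at 7.18, 6.19 and 6.01 in bound day 0, at 7.98, 9.59 and 7.66 in bound day 2, and at 7.51, 6.31 and 7.66 in bound day 5. In the unbound fraction it was at 5.78, 5.39 and 5.05 on day 0 and at 9.16, 7.39 and 7.25 on day 5. Bound day 2 and unbound day 5 lay wholly above their sham arrays, whereas bound day 5 overlapped bound day 0. Ccl2 rose 5.76-fold in the unbound fraction (2.53 ± 0.61, adjusted p = 0.0211), and this call was lost without the 4 bright arrays (2.67, adjusted p = 0.0992), without array 5 (2.51, adjusted p = 0.0654), without array 6 (2.34, adjusted p = 0.0781) and without array 13 (1.92, adjusted p = 0.0967). In the bound fraction its day 2 difference of 1.95 ± 0.61 missed the threshold (adjusted p = 0.0675, or 0.0457 without array 13, which is outside the groups compared). On day 5 the difference in that fraction was 0.70 ± 0.61 (95% interval -0.63 to 2.03, adjusted p = 0.44). The bound minus unbound difference was 1.05 ± 0.61 on day 0 (adjusted p = 0.312) and -0.77 ± 0.61 on day 5 (adjusted p = 0.426), and its change, -1.83 ± 0.87, did not pass (adjusted p = 0.365).

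Ccl7, the neighbour of Ccl2 and another Ccr2 ligand, passed in no comparison. It was at 7.09, 4.91 and 5.08 in bound day 0, at 5.99, 7.91 and 4.93 in bound day 2 and at 6.36, 6.79 and 6.41 in bound day 5. The unbound arrays were at 4.83, 5.16 and 4.65 on day 0 and at 7.53, 6.29 and 5.69 on day 5, which did not overlap. The unbound difference was 1.62 ± 0.73 (adjusted p = 0.197). Array 1 in bound day 0, array 8 in bound day 2 and array 13 in unbound day 5 were the highest of their groups for Ccl7 and for Ccl2 alike.

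Ccl8 was at 5.74, 1.35 and 5.81 in bound day 0, at 5.09, 5.47 and 4.93 in bound day 2, and at 7.60, 9.55 and 7.04 in bound day 5. Unbound arrays had 5.89, 4.85 and 5.69 on day 0 and at 9.72, 8.76 and 7.82 on day 5. The arrays of day 5 lay above those of day 0 in both fractions, and in the bound fraction above those of day 2. Ccl8 rose 13.6-fold in the bound fraction by day 5 (3.76 ± 1.03, adjusted p = 0.0209), a call that was lost without array 11 (3.06, adjusted p = 0.0753), without the 4 bright arrays (4.19, adjusted p = 0.0586) and with only the groups of the contrast in the fit (3.67, adjusted p = 0.0899). The low value of array 2, under the floor, enters this fold, and without array 2 the difference fell to 2.29 and still passed. Over 26 settings the difference ran from 2.29 to 4.86. On day 2 the difference from day 0 was 0.86 ± 1.03, or -0.62 without array 2, and day 5 against day 2 gave 2.90 ± 1.03 (adjusted p = 0.199). The unbound difference, 3.29 ± 1.03, missed the threshold (adjusted p = 0.0618) and passed without array 2 (3.30, adjusted p = 0.00709), a bound array outside the groups compared.

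Ccl11, the eosinophil attractant, was the only gene of the 10 whose 3 bound groups had the highest means. It was at 7.08, 5.07 and 4.53 in bound day 0, at 5.68, 7.55 and 7.44 in bound day 2, and at 6.94, 6.45 and 7.38 in bound day 5. The unbound arrays were at 5.09, 2.92 and 4.17 on day 0, the second of which was under its floor, and at 4.89, 4.52 and 5.01 on day 5. On day 5 every bound array lay above every unbound array, a separation that 21.7% of all genes showed. The difference of 2.12 ± 0.70, or 4.35-fold, missed the threshold (95% interval 0.59 to 3.65, adjusted p = 0.0642) and passed in 8 of 26 other settings, among them the fit without array 1 (2.12, adjusted p = 0.0338) and the fit without array 7 (2.13, adjusted p = 0.0387). Arrays 1 and 7 are outside the groups compared, and the difference hardly moved without them. The day 0 difference was 1.5 ± 0.70 (adjusted p = 0.209). No change over time passed for Ccl11: the bound fraction gave 1.33 ± 0.70 on day 2 (adjusted p = 0.273) and 1.37 ± 0.70 on day 5 (adjusted p = 0.179), which became 2.13 (adjusted p = 0.0382) without array 1, and the unbound fraction gave 0.74 ± 0.70 (adjusted p = 0.579).

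Of the ligands of Ccr1, Ccl5 and, by its brighter probe set, Ccl9 rose in the bound fraction. Ccl5 (RANTES, which also attracts T cells) was there at 5.78, 4.70 and 4.77 on day 0, at 4.06, 6.75 and 8.41 on day 2, and at 8.15, 7.91 and 7.31 on day 5. Unbound arrays were at 7.37, 5.49 and 6.71 on day 0 and at 7.52, 8.55 and 8.43 on day 5. The bound arrays of day 5 lay together above those of day 0, and those of day 2 spanned both. Ccl5 rose 6.53-fold by day 5 (2.71 ± 0.86, adjusted p = 0.0384). The call was lost without the 4 bright arrays (2.91, adjusted p = 0.0526), with brightness as a covariate (2.46, adjusted p = 0.0641), and on leaving out array 2, 3, 6, 10, 11, 12 or 15 (differences of 2.51 to 2.92, adjusted p = 0.0508 to 0.107). Without array 7, at 4.06, the day 2 difference of 1.32 ± 0.86 (adjusted p = 0.381) became 2.51 (adjusted p = 0.0212). The unbound difference was 1.65 ± 0.86 (adjusted p = 0.269).

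Ccl6 rose in the unbound fraction, and its 2 probe sets differed on the bound fraction. The brighter set (1417266_at) was at 7.78, 7.96 and 7.97 in unbound day 0 and at 11.94, 11.01 and 10.30 in unbound day 5, a rise of 9.06-fold (3.18 ± 0.57, adjusted p = 0.00433) that held in all 26 other settings. In the bound fraction it was at 8.16, 8.32 and 9.11 on day 0, at 9.18, 8.87 and 9.15 on day 2 and at 9.59, 11.00 and 8.30 on day 5, with overlapping groups and a day 5 difference of 1.10 ± 0.57 (adjusted p = 0.183). Without array 12 that difference was 1.76 (adjusted p = 0.0314), and without array 11 the bound minus unbound difference of day 5 went from -1.45 (adjusted p = 0.108) to -2.11 (adjusted p = 0.023). The other set (1420249_s_at), tested with every probe set of the array on its own, was at 3.74, 1.56 and 5.37 in bound day 0, at 6.77, 4.84 and 7.78 in bound day 2 and at 6.96, 7.92 and 6.14 in bound day 5. By this set the bound fraction rose at least 5.74-fold by day 5 (adjusted p = 0.0242), its sham mean being under the floor, and the unbound fraction rose 12.6-fold (3.65 ± 0.92, adjusted p = 0.0357). Bound minus unbound in sham kidney was 0.63 ± 0.57 by the brighter set (adjusted p = 0.535) and -2.07 ± 0.92 by the other (adjusted p = 0.213), so no direction can be given for it. The change of the bound minus unbound difference from day 0 to day 5 was -2.08 ± 0.81 by the brighter set, with an unadjusted p of 0.0236 and an adjusted p of 0.29, and -0.21 ± 1.31 by the other (adjusted p = 0.964).

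**Figure D2:**
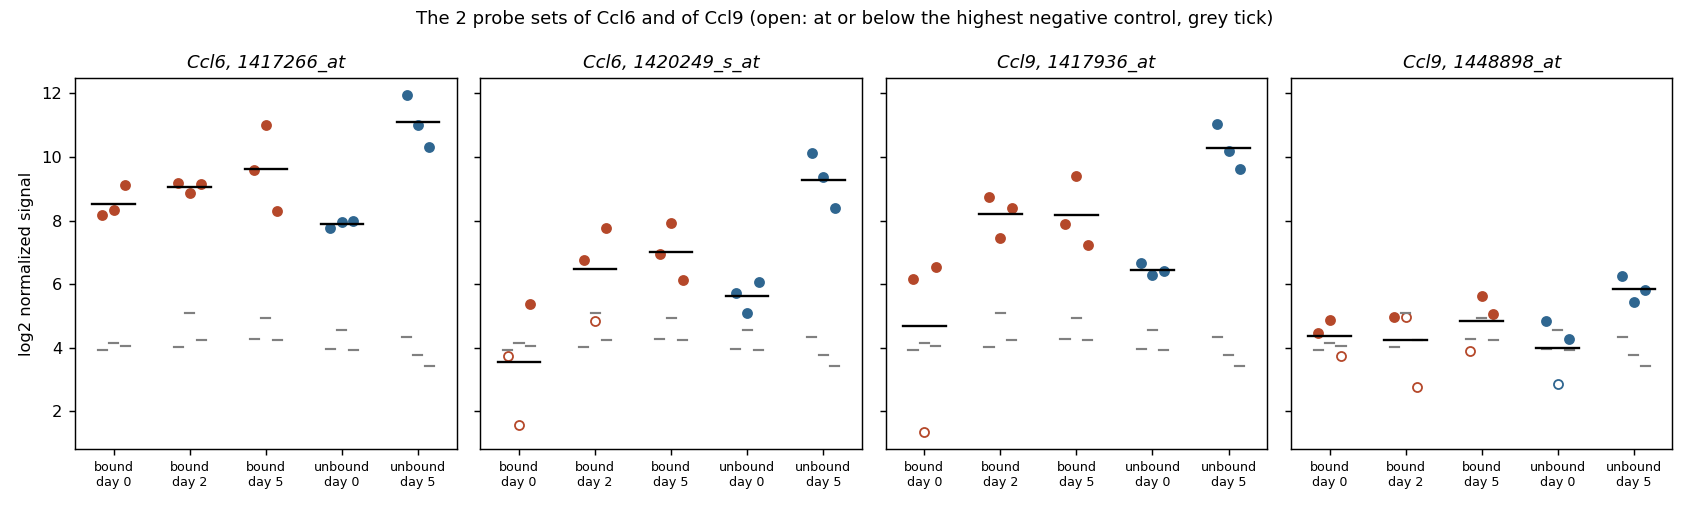
Normalized log2 signal (vertical axis) of both probe sets of Ccl6 and of Ccl9 in the 5 groups (horizontal axis), 1 point per array, with group means as black bars, floors as grey ticks and open points at or below the floor. The 2 sets of Ccl6 both rise in the unbound fraction and have opposite signs for bound minus unbound on day 0 (0.63 and -2.07), and the second set of Ccl9 is above the floor on all arrays of unbound day 5 and on some arrays of each other group.

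Ccl9, a myeloid attractant that acts on Ccr1, rose in both fractions by its brighter set (1417936_at). It was at 6.17, 1.35 and 6.54 in bound day 0, at 8.75, 7.45 and 8.38 in bound day 2 and at 7.89, 9.40 and 7.24 in bound day 5. The unbound arrays stood at 6.65, 6.29 and 6.40 on day 0 and at 11.05, 10.20 and 9.62 on day 5. All arrays of obstructed kidneys lay above the sham arrays of their fraction. The unbound rise was 14.4-fold (3.84 ± 1.08, adjusted p = 0.041), and the bound rise by day 5 was 11.2-fold (3.49 ± 1.08, adjusted p = 0.0352). Array 2, at 1.35 and under the floor for Ccl9 as for Ccl8, set the size of the bound value, which was 1.83 without it (adjusted p = 0.0574). The bound call was also lost without array 10 (3.63, adjusted p = 0.0729), without array 11 (2.92, adjusted p = 0.113), without the 4 bright arrays (3.88, adjusted p = 0.0917) and with only the groups of the contrast (3.40, adjusted p = 0.127). The day 2 difference, 3.51 ± 1.08, missed the threshold (adjusted p = 0.0625) and passed without array 1 (4.26, adjusted p = 0.0469) or array 3 (4.45, adjusted p = 0.0372). Both of these fits keep the low array 2, without which the day 2 difference was 1.84 and did not pass.

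The unbound call of Ccl9 was lost on leaving out array 4, 5, 6, 10, 13, 14 or 15 (differences of 3.47 to 4.20, adjusted p = 0.0561 to 0.15), without the 4 bright arrays (4.16, adjusted p = 0.172), and with every probe set on its own (adjusted p = 0.0562). Its second probe set (1448898_at) was between 2.75 and 6.25 on all arrays. By that set the unbound fraction was at least 2.41-fold higher on day 5 (adjusted p = 0.139), and no difference of the bound fraction passed. Its bound difference from day 0 was -0.13 ± 0.67 on day 2 (adjusted p = 0.941), when its mean was under the floor. On day 5 it was 0.50 ± 0.67 (adjusted p = 0.653), so the bound rise of Ccl9 was seen by the brighter set only. Bound minus unbound on day 5 was -2.11 ± 1.08 by the brighter set (adjusted p = 0.211), with no overlap between the arrays, and passed without array 2 (-2.11, adjusted p = 0.0285). Array 2 is outside the groups of that comparison.

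Ccl3 and Ccl4, which attract monocytes and T cells, were near the floor in the bound fraction. Ccl3 was above the floor on 1 of 9 bound arrays, array 7 at 4.62, and the other 8 lay between 0.42 and 4.04. In the unbound fraction it was at 3.65, 4.25 and 5.38 on day 0, of which only the last was above the floor, and at 7.54, 5.94 and 6.23 on day 5. On day 5 Ccl3 was at least 4.27-fold lower in the bound than in the unbound fraction, with an adjusted p of 0.0545, and its unbound difference from day 0 was 2.15 ± 0.98 (adjusted p = 0.203). The day 5 difference between fractions passed in 10 of 26 other settings, among them the fits without array 1 (adjusted p = 0.0479), 3 (adjusted p = 0.0267), 7 (adjusted p = 0.0259) and 9 (adjusted p = 0.0441). These arrays are all outside the groups of that comparison. On day 0, when all 3 bound arrays were under the floor, Ccl3 was at least 1.3-fold lower in the bound fraction (adjusted p = 0.125, or 0.0329 without array 3). Ccl4 was at 4.88, 4.96 and 4.88 in unbound day 0 and at 6.30, 5.75 and 5.80 in unbound day 5 (1.04 ± 0.58, adjusted p = 0.308). Its bound arrays were between 2.59 and 5.56, and on day 5 it was at least 2.63-fold lower in the bound fraction (adjusted p = 0.0584), which passed without array 2 (adjusted p = 0.0262), 3 (adjusted p = 0.0329) or 11 (adjusted p = 0.0456). Of these, arrays 2 and 3 are outside the groups compared.

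**Figure D3:**
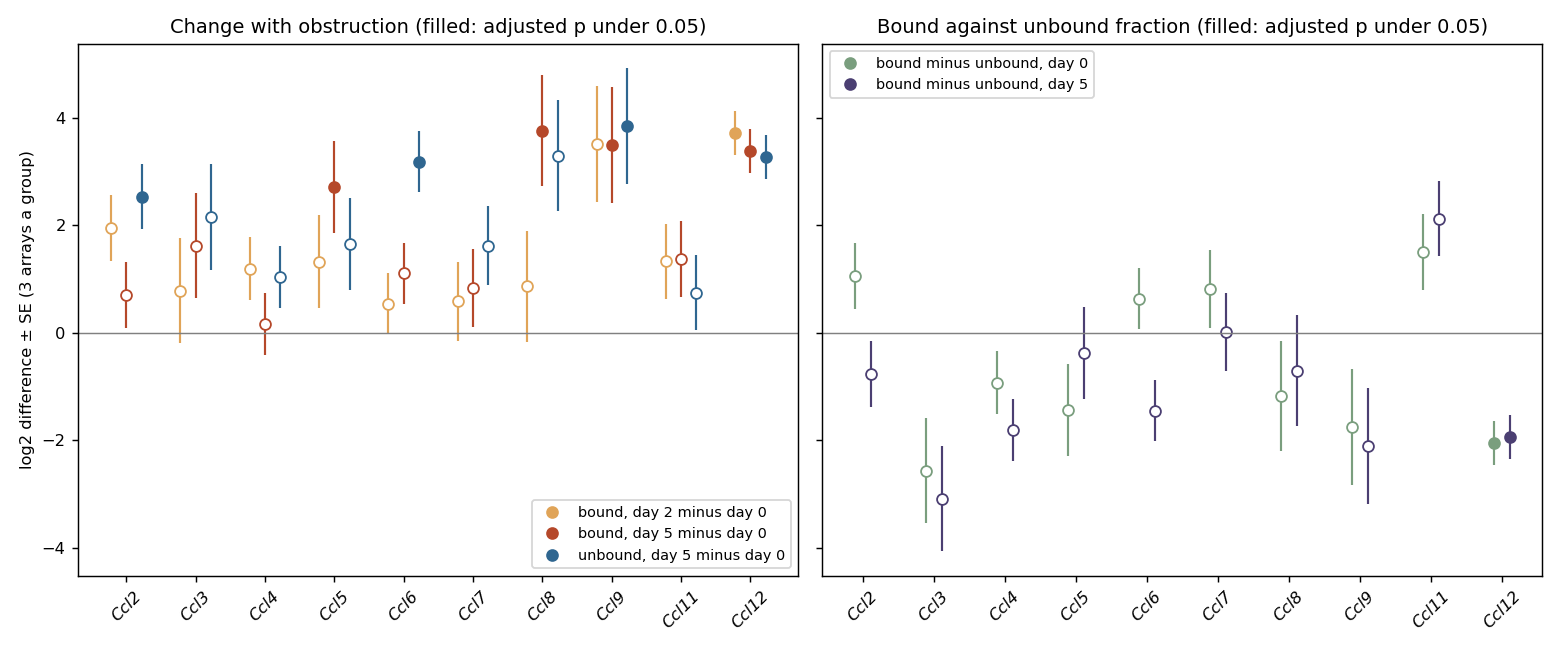
Log2 differences (vertical axis) with their standard errors for the 10 CC chemokines (horizontal axis), 3 arrays a group, for the changes with obstruction (left) and for bound against unbound (right), filled where the adjusted p was under 0.05. All 30 points on the left are above 0, but 3 of them (Ccl3 in both bound comparisons and Ccl4 in bound day 5) compare groups at the floor, so that their position has no meaning. Ccl12 is the only filled gene on the right, at -2.06 on day 0 and -1.94 on day 5.

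Across the fractions, 6 of the 10 chemokines had a lower mean in the bound fraction on day 0 and 8 on day 5, with medians of -1.05 and -1.11 where all genes had -0.13 and 0.03. The day 0 tally leans on array 2, without which the difference was 0.30 for Ccl8 and -0.09 for Ccl9. The bound means of Ccl3 and Ccl4 were under the floor on both days, as was the unbound day 0 mean of Ccl11, so the sizes of those differences are not measured. No chemokine was called higher in the bound fraction, where 4.81% and 6.37% of all genes were. Arrays were separated downwards for Ccl12 alone on day 0 (22.1% of all genes) and for Ccl3, Ccl4, Ccl9 and Ccl12 on day 5 (21.3%), and upwards for Ccl2 and Ccl6 on day 0 (14.7%) and for Ccl11 on day 5. No chemokine passed for a change of its bound to unbound difference between day 0 and day 5, where 0.0178% of all genes did, and 1 of 10 (Ccl6) had an unadjusted p under 0.05. In such tissue RNA, fewer cells of a type and less RNA per cell cannot be told apart.

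Between arrays of a group, the members did not vary as 1 set. After each group mean was taken off, Pearson's r over the 15 arrays was negative for 19 of the 45 pairs of members, with a median of 0.119. The 3 highest values were 0.94 for Ccl8 and Ccl9, 0.785 for Ccl2 and Ccl7, and 0.756 for Ccl4 and Ccl9. Ccl4, Ccl8 and Ccl9 were all under the floor on array 2, which enters the values of 0.94 and 0.756. The lowest was -0.698 for Ccl3 and Ccl5, and Ccl3 was above the floor on only 5 of 15 arrays. Ccl12 had its highest such value with Ccl6, at 0.537. These are descriptions over arrays that also share brightness and normalization. Among all tested genes, those most like Ccl12 over the 15 arrays were Rem2 (r = 0.977), Golm1 (0.963) and Cd14 (0.962), those most like Ccl11 were Ostc (0.954), Epha3 (0.94) and Fkbp14 (0.933), and those most like Ccl9 were H2-DMb2 (0.948), Oas2 (0.944) and Sash3 (0.934).

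Of the receptors for these ligands, Ccr1 and Ccr2 rose. Ccr1, the receptor of Ccl3, Ccl5, Ccl6 and Ccl9, was at or under the floor on all 3 arrays of bound day 0 (3.87, 3.73 and 2.90) and at 6.19, 5.26 and 5.66 on day 2 and 6.23, 6.49 and 5.94 on day 5, at least 3.16-fold (adjusted p = 0.00374) and at least 4.51-fold higher (adjusted p = 0.000556). The day 2 call of Ccr1 was lost with the mean of all probe sets (1.84, adjusted p = 0.0724) and with only the groups of the contrast (2.16, adjusted p = 0.0559). In the unbound fraction Ccr1 rose 9.86-fold (3.30 ± 0.38, adjusted p = 0.000276), and on day 5 it was 3.70-fold lower in the bound fraction (adjusted p = 0.00989). Ccr2, the receptor of Ccl2, Ccl7 and Ccl12, rose 16-fold in the unbound fraction (4.00 ± 0.82, adjusted p = 0.00906) and 5.82-fold in the bound fraction by day 5 (2.54 ± 0.82, adjusted p = 0.0419), with array 1 at 2.04 in a bound day 0 group that was otherwise at 5.05 and 5.33. Without array 1 the bound difference of Ccr2 was 1.49 (adjusted p = 0.128), and leaving out array 4, 5, 6, 10, 11, 12, 13 or 14 also ended this call (adjusted p = 0.0511 to 0.121). The call was lost too without the 4 bright arrays (2.81, adjusted p = 0.0991) and with brightness as a covariate (2.65, adjusted p = 0.0505). Every probe set on its own (adjusted p = 0.0518) and only the groups of the contrast (2.46, adjusted p = 0.0918) ended it as well. Without the 4 bright arrays the unbound rise of Ccr2 was 4.57 (adjusted p = 0.0628), and Ccr1 in the bound against the unbound fraction was -1.99 (adjusted p = 0.0938). Ackr2, a decoy receptor that clears these ligands, passed in no comparison and was under the floor in every bound group mean. Ccr3 and Ccr8, the receptors of Ccl11 and Ccl8, were at or under the floor on every array. Of 11 receptors and decoys tested, 1 rose in bound day 2, 2 in bound day 5 and 2 in unbound day 5, and none fell over time. Among all genes, 5.6%, 13.7% and 6.43% rose in these comparisons.

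Of 7 other CC chemokines tested, 1 rose in the bound fraction by day 5, Ccl17, a ligand of Ccr4 (2.56 ± 0.77, adjusted p = 0.0318, lost without array 2, 3, 10, 11 or 12 with 2.22 to 2.70 and adjusted p = 0.0598 to 0.11), and 1 in the unbound fraction, Ccl20, a ligand of Ccr6 (at least 2.11-fold, adjusted p = 0.00136). Among all genes, 5.6% rose by day 2 and 13.7% by day 5 in the bound fraction, and 6.43% rose in the unbound fraction. Of 16 genes of the NF-kappaB pathway tested, 4 rose by day 2 and 6 by day 5 in the bound fraction and 7 in the unbound fraction, and none fell. Bcl3, a nuclear partner of NF-kappaB subunits, rose by 2.96 ± 0.50 (adjusted p = 0.00309), 3.65 ± 0.50 (adjusted p = 0.00046) and 1.95 ± 0.50 (adjusted p = 0.0279) in those comparisons, the last of which was lost on leaving out any of its 6 arrays (1.84 to 2.07, adjusted p = 0.0562 to 0.0958). The day 2 call of Bcl3 was lost without the 4 bright arrays (2.53, adjusted p = 0.0557) and with only the groups of the contrast (2.94, adjusted p = 0.0953). Nfkb2, which encodes the p100 precursor of the noncanonical pathway, rose by 1.62 ± 0.28, 2.11 ± 0.28 and 1.63 ± 0.28 (adjusted p = 0.0033, 0.000356 and 0.00311), but with the mean of all probe sets its day 2 difference was 0.81 (adjusted p = 0.0639), and with only the groups of the contrast the call was lost too (adjusted p = 0.0526).

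Among 16 inducing cytokines and receptors tested, 2 rose in bound day 2, 3 in bound day 5 and 4 in unbound day 5. The shares of all genes that rose were 5.6%, 13.7% and 6.43%. Il6, which encodes an inflammatory cytokine, was under the floor on all 6 sham arrays and rose at least 28.0-fold by day 2 (adjusted p = 2.53e-05) and at least 13.5-fold by day 5 in the bound fraction (adjusted p = 5.1e-05), and at least 3.36-fold in the unbound fraction (adjusted p = 0.000648). Tnf and Il1b, both classical inducers of chemokines, did not pass over time. Il1b gave 0.62 ± 0.46 and 0.22 ± 0.46 in the bound fraction on days 2 and 5 and 0.54 ± 0.46 in the unbound fraction (adjusted p = 0.452, 0.769 and 0.533), and it was 3.18-fold lower in the bound fraction on day 5 (adjusted p = 0.034), a call lost without array 10, 12, 13, 14 or 15 (-1.85 to -1.21, adjusted p = 0.0659 to 0.119). Tnf was not above the floor on any array of bound day 2.

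Some macrophage, neutrophil, and fibroblast and pericyte markers rose in the comparisons in which chemokines rose. Of 9 fibroblast and pericyte markers, 2 and 5 rose in the bound fraction by days 2 and 5, and 6 in the unbound fraction by day 5. The shares of all genes that rose in these comparisons were 5.6%, 13.7% and 6.43%. Of 14 macrophage and monocyte markers, 9 rose in the unbound fraction by day 5, and 2 and 5 rose in the bound fraction by days 2 and 5, while 1 and 3 were lower in the bound than in the unbound fraction on days 0 and 5. Their summed linear signal was 2540 to 8310 in bound day 0, 5030 to 18500 in bound day 2, 7610 to 19300 in bound day 5, 6890 to 9640 in unbound day 0 and 30200 to 35800 in unbound day 5. Itgam was at or under the floor on all arrays of bound day 5. Of 6 neutrophil markers, 2 and 3 rose in the bound fraction by days 2 and 5 and 3 in the unbound fraction by day 5. The neutrophil genes S100a8 and S100a9 rose in bound day 2 (4.20 and 4.89), bound day 5 (3.74 and 4.28) and unbound day 5 (3.85 and 4.06), with adjusted p of at most 0.00931. The defining markers Ngp and Ltf were at or under the floor on all arrays of bound days 0 and 2, and Ngp also in bound day 5. Cxcr2 was so in bound days 0 and 5, and Csf3r in bound day 2. The summed signal of 6 neutrophil markers was 53.6 to 104 in bound day 0, 795 to 4430 in bound day 2, 443 to 2130 in bound day 5, 242 to 360 in unbound day 0 and 2310 to 6280 in unbound day 5. The sum of 8 T and NK cell markers was 165 to 205 in bound day 0, 121 to 214 in bound day 2, 196 to 293 in bound day 5, 192 to 391 in unbound day 0 and 491 to 566 in unbound day 5, and 0 of 8 rose in the bound fraction on either day and 1 in the unbound fraction. The sum of 5 mast cell and eosinophil markers did not exceed 78.5, and Cpa3 was at or under the floor in every group. The 9 fibroblast and pericyte markers summed to 33400 to 34200 in bound day 0 and 7440 to 10000 in unbound day 0, with 8 of 9 higher in the bound fraction, and to 56900 to 60500 and 32400 to 34300 on day 5, with 4 of 9 higher. Among all genes, 4.81% and 6.37% were called higher in the bound fraction on days 0 and 5, and 4.1% and 7.74% lower. Tubule and endothelial markers were lower in the bound fraction on day 5 than on day 0: 4 of 5 proximal tubule markers fell, with 4 of 4 of the loop and distal tubule, 3 of 3 of the collecting duct and 3 of 6 endothelial markers. In the unbound fraction 1, 0, 2 and 0 of these fell. Among all genes, 9.99% fell in the bound fraction by day 5 and 3.93% in the unbound fraction. The loop and distal tubule sum was 17400 to 27100 in bound day 0, which overlaps the 23400 to 30500 of unbound day 0, and 8740 to 11900 in bound day 5 against 19200 to 21900 in unbound day 5. The part of these cells in the chemokine signal was not tested.

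**Figure D4:**
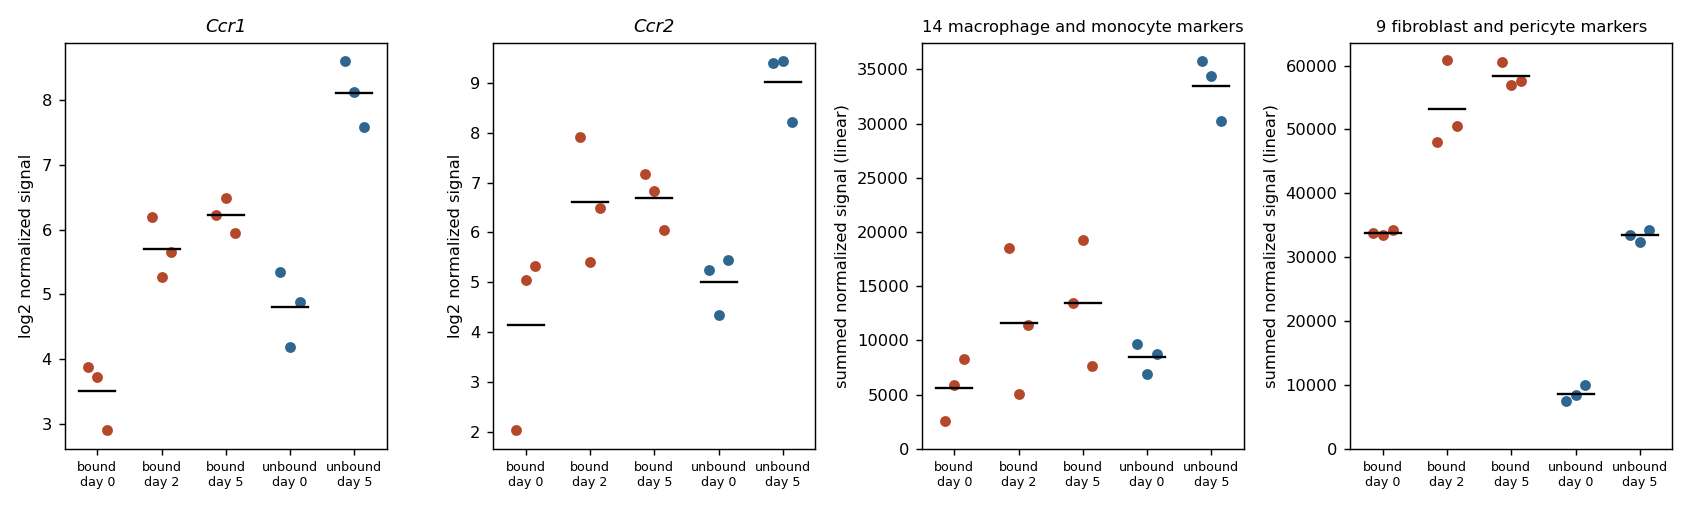
Normalized log2 signal of Ccr1 and Ccr2 and summed linear signal of the macrophage and fibroblast marker lists (vertical axes) in the 5 groups (horizontal axes), 1 point per array, bar at the group mean, red for bound and blue for unbound. The macrophage sum is highest in unbound day 5 (30200 to 35800), and the fibroblast sum is highest in bound days 2 and 5 (48000 to 60900).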

How the data were processed

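Probe set intensities of 15 one-colour arrays of polysomal kidney RNA, amplified once with a NuGEN kit per the labels, were used as the authors deposited them, on a linear scale. How probe signals were summarized, corrected and scaled is not given in the sources used here, and array medians ran from 16.4 to 198.7. Quantile normalization was applied. The number of arrays, 3 a group, limits the precision.

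Of 45037 probe sets besides 64 controls, 34945 had 1 gene, 932 several and 9160 none, and 34741 were named by Entrez identifier. Values were log2 of the intensity plus 1. The probe set of highest mean stood for its gene. The 16864 genes above the 25th percentile on at least 3 arrays entered limma 3.58.1 (R 4.3.3; 5 group means, 7 contrasts, residual degrees of freedom 10, prior 2.32), after a check on simulated data. Where a group mean was at or below the floor, arrays below their floor were raised to it, which makes the fold a bound. Named are the 10 members, fixed receptors and inducers, up to 4 called genes of a list by size, and the 3 most correlated genes. The members and lists were chosen with earlier results of these data known. Alternatives were median centring, other filters, a pseudocount of 16, other uses of probe sets, priors, weights and brightness, and leaving out arrays. Figures used matplotlib 3.10.9.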

Additional observations from a re-analysis of the deposited data

How the results depend on the processing

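No paired analysis was possible because the array numbers of the labels run from 1 to 15 and no 2 groups share a number. Of 752 member differences under other settings than leaving out an array, 684 kept direction and call, 41 gained a call, 11 lost it and 16, none of them called, turned sign; of 1050 with an array left out, the numbers were 981, 19, 21 and 29.

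Calls among the 10 chemokines for bound against unbound on day 0 went from 1 to 4 with array weights and 0 without the 4 bright arrays, and on day 5 from 1 to 3 with median centring, a filter at the 50th percentile, a trended prior or only the groups compared, 5 with a pseudocount of 16, 6 with array weights and 0 without the bright arrays. The change in that difference gained 1 call (Ccl6) with array weights. Bound day 2 went from 1 to 3 with the 50th percentile filter, a pseudocount of 16 or a trended prior. Bound day 5 went from 4 to 1 without the bright arrays and 2 with only its groups, and unbound day 5 from 4 to 2 and 8, and 8 with array weights. Leaving out single arrays gave 1 to 2, 1 to 3, 1 to 2, 1 to 5 and 2 to 5 calls for bound against unbound on days 0 and 5, bound days 2 and 5 and unbound day 5. Without the bright arrays fewer samples were fitted; the cause of the other changes was not tested.

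Signs turned for bound against unbound in Ccl6 on day 0 (-0.72 with the mean of probe sets) and Ccl7 on day 5 (-0.01 with a pseudocount of 16, -0.22 with array weights, -0.08 with brightness, -0.33 without the bright arrays). They turned for its change in Ccl8 (-0.20) and Ccl12 (-0.23) with a pseudocount of 16, Ccl9 (0.94) and Ccl12 (-0.21) with array weights, Ackr2 (-0.10 with the mean of probe sets, -0.18 with a pseudocount of 16), Il1b (0.17 without the bright arrays) and Tnf (0.15 with array weights, 0.06 with brightness, 0.28 without the bright arrays). For bound day 5 against day 2 they turned in Ccl7 (-0.06 with array weights, -0.38 without the bright arrays), Ccl9 (0.14 with centring, 0.30 with the mean of probe sets, 0.54 without the bright arrays), Ccl11 (-0.16 with array weights), Ccl12 (0.21) and Il1b (0.01) without the bright arrays and Ccr2 (-0.29 with the mean of probe sets), and for bound day 5 against day 0 in Il1b (-0.26 with array weights).

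Leaving out single arrays turned uncalled differences within these ranges: bound against unbound, Ccl8 on day 0 (-1.94 to 0.30), Ccr2 on day 0 (-1.47 to 0.18) and Ccl7 on day 5 (-0.39 to 0.53); its change, Ccl3 (-1.24 to 0.58), Ccl8 (-1.01 to 1.23), Ccl9 (-2.02 to 0.57), Ccl12 (-0.10 to 0.40), Il1b (-0.85 to 0.13) and Tnf (-0.24 to 0.16); bound day 2 against day 0, Ccl3 (-0.21 to 1.88), Ccl7 (-0.23 to 1.28) and Ccl8 (-0.62 to 1.62); bound day 5 against day 0, Ccl4 (-0.53 to 0.78) and Il1b (-0.31 to 0.66); bound day 5 against day 2, Ccl6 (-0.12 to 1.23), Ccl7 (-0.43 to 1.06), Ccl9 (-0.63 to 0.45), Ccl11 (-0.57 to 0.37), Ccr2 (-0.52 to 0.74) and Il1b (-0.94 to 0.04). Signal near the floor limits Ccl3, Ccl4 and the second probe set of Ccl9.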
